A study of Mus musculus with 11 samples.

Results

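The elastic fibre and lysyl oxidase genes examined here were 10 genes chosen by symbol: elastin (Eln), the fibulins Fbln1, Fbln2, Fbln5, Efemp1 and Efemp2, the microfibril-associated protein Mfap4, and the lysyl oxidases Lox, Loxl1 and Loxl4. A probe set annotated to 1 of these symbols alone was found for 9 of the 10, among 19938 genes tested in all. Efemp2 was not analysed here. Only Loxl4 had more than 1 such probe set, and the one with the highest mean over the 11 arrays was used.

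Total RNA from the liver of male mice aged 14 months was hybridised to Affymetrix arrays, 1 array per sample. The Mdr2-KO/IL6-KO group (4 arrays) lacked both Mdr2 and interleukin 6, the Mdr2-KO group (4 arrays) lacked Mdr2 alone, both taken from tissue labelled free of tumour, and the wild type group (3 arrays) was labelled C57BL/6. Both knockout groups thus shared the loss of Mdr2, the transporter encoded by Abcb4 that moves phosphatidylcholine into bile. No strain label was attached to the knockout samples, so any difference of strain from wild type cannot be told apart from genotype. How the alleles were made is not given in the sources used here. Whether every array stands for a separate mouse is not stated, so the p-values reflect the scatter among these samples only, which may be technical. Titles number the wild-type samples in a W series and the knockout samples in a BIL series, and what these series stand for cannot be told apart from genotype when a knockout group is set against wild type.

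The arrays were alike, with Pearson r between 0.976 and 0.990 over all probe sets for any pair. Abcb4 averaged a log2 level of 8.09 in Mdr2-KO/IL6-KO and 7.74 in Mdr2-KO livers, against 9.83 in wild type, 3.34-fold and 4.26-fold lower in the 2 knockout groups in that order (limma adjusted p = 6.75e-06 and 2.22e-06). The Il6 probe set lay near the bottom of the scale in every group, at means of 1.92, 2.02 and 1.80 for Mdr2-KO/IL6-KO, Mdr2-KO and wild type, and it gives no check of that allele. The tissue label was borne out by the hepatocyte markers Alb, Apoa1 and Ttr, each at a mean log2 level above 12 in all 3 groups.

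Elastic fibres give vessels, ducts and other stretching tissues their recoil. Elastin is secreted as soluble tropoelastin, is gathered by fibulins onto a scaffold of fibrillin microfibrils, and is made insoluble when lysyl oxidases, copper-dependent amine oxidases, convert its lysines into reactive aldehydes that form cross-links. The same enzymes cross-link collagen. In normal liver elastic fibres lie mainly in portal tracts and vessel walls, and they accumulate in scars, where portal fibroblasts and activated stellate cells are their known sources. Cross-linked scar is known to resist degradation.

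Promoters from RefSeq (GRCm38.p6, from 250 bases before to 50 after the start of transcription) were at hand for 6 of the 10 genes. Those of Efemp1 and Fbln2, whose arrays lay higher in both knockout groups than in wild type without overlap, are shown with that of Loxl4, the 1 gene of the group that lay lower. They are chr11:28852955-28853254 on the plus strand for Efemp1, chr6:91212514-91212813 on the plus strand for Fbln2 and chr19:42612757-42613056 on the minus strand for Loxl4.
Efemp1: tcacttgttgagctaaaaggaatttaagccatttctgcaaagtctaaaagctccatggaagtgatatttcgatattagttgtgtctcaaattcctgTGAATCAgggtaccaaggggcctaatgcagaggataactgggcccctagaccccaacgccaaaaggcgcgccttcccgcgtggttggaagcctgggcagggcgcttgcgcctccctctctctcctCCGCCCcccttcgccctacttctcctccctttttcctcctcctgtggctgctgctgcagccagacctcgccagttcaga
Fbln2: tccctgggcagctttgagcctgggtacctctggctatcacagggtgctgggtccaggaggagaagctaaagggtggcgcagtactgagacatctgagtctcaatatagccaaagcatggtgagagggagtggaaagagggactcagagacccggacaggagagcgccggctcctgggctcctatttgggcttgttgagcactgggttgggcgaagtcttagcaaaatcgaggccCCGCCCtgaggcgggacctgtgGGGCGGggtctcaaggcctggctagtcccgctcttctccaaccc
Loxl4: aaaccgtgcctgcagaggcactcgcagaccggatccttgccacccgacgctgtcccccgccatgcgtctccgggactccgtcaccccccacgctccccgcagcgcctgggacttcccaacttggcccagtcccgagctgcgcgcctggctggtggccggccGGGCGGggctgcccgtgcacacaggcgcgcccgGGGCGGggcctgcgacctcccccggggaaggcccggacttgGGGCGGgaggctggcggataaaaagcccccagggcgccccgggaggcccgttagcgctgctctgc
Capitals mark matches on either strand to 4 motifs: the GC box GGGCGG, the TATA box TATAAA, the AP-1 motif TGANTCA and the TEAD motif GGAATG, none of which overlapped another match in these windows. Loxl4 held 3 GC boxes, Fbln2 held 2 and Efemp1 held 1, and 35.7% of all 32851 promoters of this length held at least 1. Efemp1 alone of the 3 held an AP-1 match, as did 7.81% of all promoters, and none of the 3 held a TATA box or TEAD match (13.6% and 14.7% of all promoters). The Loxl4 window was 75.0% G and C, Fbln2 60.3% and Efemp1 54.3%, against a median of 52.7%. These matches are letters in a window and say nothing of binding.

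The comparisons with wild type ask how livers without Mdr2, with or without interleukin 6, differ from normal liver. In Mdr2-KO/IL6-KO livers Loxl1, Eln and Lox rose and Loxl4 fell, and the other 5 measured genes did not pass the test. Loxl1 rose 2.05-fold, Eln 1.39-fold and Lox 1.34-fold, and Loxl4 fell 1.35-fold. In Mdr2-KO livers Loxl1 alone rose, 1.86-fold. The test was limma's moderated test on the log2 levels, fitted over all 11 arrays and two-sided, with p-values adjusted over the 19938 genes by the Benjamini-Hochberg method and a call at an adjusted p under 0.05.

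Against wild type, 3 of the 9 genes thus rose and 1 fell in Mdr2-KO/IL6-KO livers, where 2.91% of all genes rose and 1.28% fell (4.19% called in all). In Mdr2-KO livers 1 of the 9 rose and none fell, where 0.948% of all genes rose and 0.316% fell (1.26% called in all). At an unadjusted p under 0.05, 8 of the 9 differed in Mdr2-KO/IL6-KO livers (15.5% of all genes) and 5 in Mdr2-KO livers (9.79% of all genes). The arrays of Mdr2-KO/IL6-KO lay apart from those of wild type, without overlap, for 7 genes upward and 1 downward, against 9.85% and 6.44% of all genes. Those of Mdr2-KO lay apart for 5 genes upward and 1 downward, against 5.49% and 3.64% of all genes. The median log2 change of the 9 genes was 0.42 in Mdr2-KO/IL6-KO and 0.24 in Mdr2-KO, while over all genes it was 0.00 and -0.01. Both comparisons share the wild-type arrays.

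**Figure D1:**
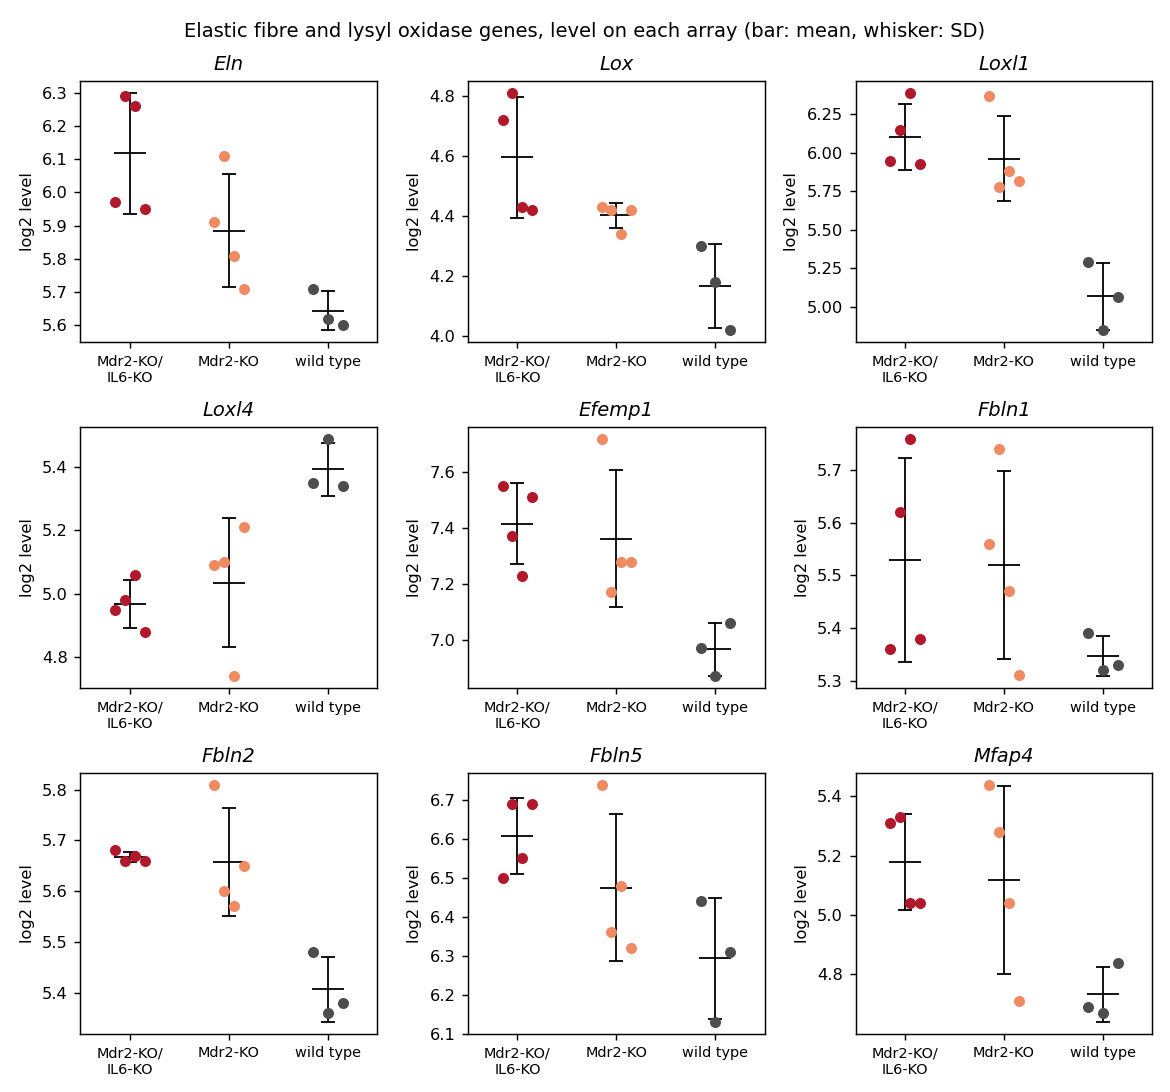
Log2 level of each of the 9 measured genes (vertical axis, a scale of its own for each gene) on each array, by genotype (horizontal axis). Points are arrays, and the bar and whiskers are the mean and SD of a group (n = 4 Mdr2-KO/IL6-KO, 4 Mdr2-KO and 3 wild type); Loxl1 is higher on all 8 knockout arrays than on any wild-type array, and Loxl4 is lower on all 8.

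Among the cross-linking enzymes, Loxl1 is the lysyl oxidase known to act on elastin, to which it is tethered by fibulin-5. Its log2 levels (probe set 10594066) were 5.95, 6.15, 6.39 and 5.93 in Mdr2-KO/IL6-KO and 6.37, 5.78, 5.88 and 5.82 in Mdr2-KO livers, against 5.29, 4.85 and 5.06 in wild type. Every knockout array lay above every wild-type array, and the narrowest gaps were 0.63 for Mdr2-KO/IL6-KO and 0.49 for Mdr2-KO on the log2 scale. The log2 change was 1.03 ± 0.16 (SE) in Mdr2-KO/IL6-KO (limma adjusted p = 0.0023) and 0.90 ± 0.16 (SE) in Mdr2-KO (limma adjusted p = 0.0127). The Mdr2-KO/IL6-KO call held when any 1 of the 11 arrays was left out, with an adjusted p of at most 0.0155. The Mdr2-KO call was lost without wild-type replicate 2 (adjusted p = 0.0719) or wild-type replicate 3 (adjusted p = 0.0526).

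Lox, the founding enzyme of the family, acts on both collagen and elastin. It read 4.72, 4.81, 4.43 and 4.42 on the log2 scale in Mdr2-KO/IL6-KO and 4.43, 4.42, 4.34 and 4.42 in Mdr2-KO livers, against 4.30, 4.18 and 4.02 in wild type. Its mean over the 11 arrays, 4.41, was below the 5.57 of the median gene, as were those of Loxl4 (5.11), Mfap4 (5.04) and Fbln1 (5.48). All knockout arrays lay above wild type, by 0.12 at the narrowest in Mdr2-KO/IL6-KO and by 0.04 in Mdr2-KO. Within Mdr2-KO/IL6-KO, replicates 1 and 2 were high and replicates 3 and 4 lay at the level of the Mdr2-KO arrays. The log2 change was 0.42 ± 0.11 (SE) in Mdr2-KO/IL6-KO (limma adjusted p = 0.0471) and 0.23 ± 0.11 (SE) in Mdr2-KO (limma adjusted p = 0.519). The call in Mdr2-KO/IL6-KO rested on a narrow margin and was kept in 3 of 11 fits that left out 1 array, with an adjusted p of up to 0.206 without wild-type replicate 3.

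Loxl4 is a lysyl oxidase with scavenger receptor domains, best known for acting on collagen. It was the 1 gene of the group that lay lower in knockout livers. It read 4.95, 4.98, 5.06 and 4.88 in Mdr2-KO/IL6-KO and 5.09, 5.10, 4.74 and 5.21 in Mdr2-KO livers, against 5.35, 5.49 and 5.34 in wild type. All 8 knockout arrays lay below the wild-type arrays, and Mdr2-KO replicate 3 was the lowest. The log2 change was -0.43 ± 0.11 (SE) in Mdr2-KO/IL6-KO (limma adjusted p = 0.0429) and -0.36 ± 0.11 (SE) in Mdr2-KO (limma adjusted p = 0.173). The other Loxl4 probe set, 10467766, averaged 3.22 and 3.18 in these groups, against 3.40 in wild type, where its arrays spread from 3.09 to 3.59 and overlapped both knockout groups. With the mean of both probe sets the Mdr2-KO/IL6-KO change was -0.30 (adjusted p = 0.0884). The call was kept in 3 of 11 fits that left out 1 array, and the adjusted p reached 0.159 without wild-type replicate 2.

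Elastin itself is the protein of the fibre core. Eln (probe set 10534343) read 5.97, 6.29, 6.26 and 5.95 in Mdr2-KO/IL6-KO and 5.91, 6.11, 5.81 and 5.71 in Mdr2-KO livers, against 5.71, 5.62 and 5.60 in wild type. The Mdr2-KO/IL6-KO arrays cleared wild type by 0.24 on the log2 scale, whereas Mdr2-KO replicate 4 exceeded wild-type replicate 1 by only 0.0015. The log2 change was 0.48 ± 0.12 (SE) in Mdr2-KO/IL6-KO (limma adjusted p = 0.0333) and 0.24 ± 0.12 (SE) in Mdr2-KO (limma adjusted p = 0.522). The Mdr2-KO/IL6-KO call was kept in 6 of 11 fits that left out 1 array. It was lost without any 1 of the wild-type arrays or without Mdr2-KO/IL6-KO replicate 2 or 3, with an adjusted p of up to 0.123.

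Mfap4 is a microfibril-associated protein that binds elastin and collagen. It read 5.31, 5.33, 5.04 and 5.04 in Mdr2-KO/IL6-KO and 5.44, 5.28, 5.04 and 4.71 in Mdr2-KO livers, against 4.69, 4.67 and 4.84 in wild type. The Mdr2-KO/IL6-KO arrays lay apart from wild type, and Mdr2-KO replicate 4 lay within the wild-type range. Neither change passed, at 0.45 ± 0.15 (SE) in Mdr2-KO/IL6-KO (limma adjusted p = 0.135) and 0.39 ± 0.15 (SE) in Mdr2-KO (limma adjusted p = 0.368). Its spread in Mdr2-KO, an SD of 0.318 over 4 arrays, was the widest of any of the 9 genes in any group.

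None of the 4 measured fibulins passed in either comparison. Efemp1, fibulin-3, is a short fibulin of fascia and basement membranes. It read 7.55, 7.37, 7.23 and 7.51 in Mdr2-KO/IL6-KO and 7.72, 7.17, 7.28 and 7.28 in Mdr2-KO livers, against 6.97, 6.87 and 7.06 in wild type, with no overlap. Its log2 change of 0.45 ± 0.13 (SE) in Mdr2-KO/IL6-KO had an adjusted p of 0.0707 by limma, and that of 0.40 ± 0.13 (SE) in Mdr2-KO an adjusted p of 0.218.

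Fbln2 encodes a large fibulin that binds tropoelastin and fibrillin and is used as a marker of portal fibroblasts. It read 5.68, 5.66, 5.67 and 5.66 in Mdr2-KO/IL6-KO and 5.81, 5.60, 5.57 and 5.65 in Mdr2-KO livers, against 5.48, 5.36 and 5.38 in wild type. All knockout arrays lay above wild type, and the Mdr2-KO/IL6-KO arrays were nearly identical, with an SD of 0.00808. The log2 changes were 0.26 ± 0.08 (SE) in Mdr2-KO/IL6-KO (limma adjusted p = 0.115) and 0.25 ± 0.08 (SE) in Mdr2-KO (limma adjusted p = 0.226).

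Fbln5, which carries Loxl1 to elastin, read 6.50, 6.69, 6.55 and 6.69 in Mdr2-KO/IL6-KO and 6.74, 6.36, 6.48 and 6.32 in Mdr2-KO livers, against 6.44, 6.13 and 6.31 in wild type. The Mdr2-KO/IL6-KO arrays lay above wild type by 0.06 at the narrowest, and the Mdr2-KO arrays overlapped it. The log2 changes were 0.32 ± 0.11 (SE, limma adjusted p = 0.170) and 0.18 ± 0.11 (SE, limma adjusted p = 0.693) in the same order of knockout groups. Fbln1, a fibulin of vessel walls and basement membranes, read 5.36, 5.62, 5.76 and 5.38 in Mdr2-KO/IL6-KO and 5.56, 5.74, 5.47 and 5.31 in Mdr2-KO livers, against 5.39, 5.32 and 5.33 in wild type. It was the 1 gene of the 9 whose arrays overlapped wild type in both comparisons. Its log2 changes were 0.19 ± 0.12 (SE, limma adjusted p = 0.534) in Mdr2-KO/IL6-KO and 0.18 ± 0.12 (SE, limma adjusted p = 0.728) in Mdr2-KO.

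**Figure D2:**
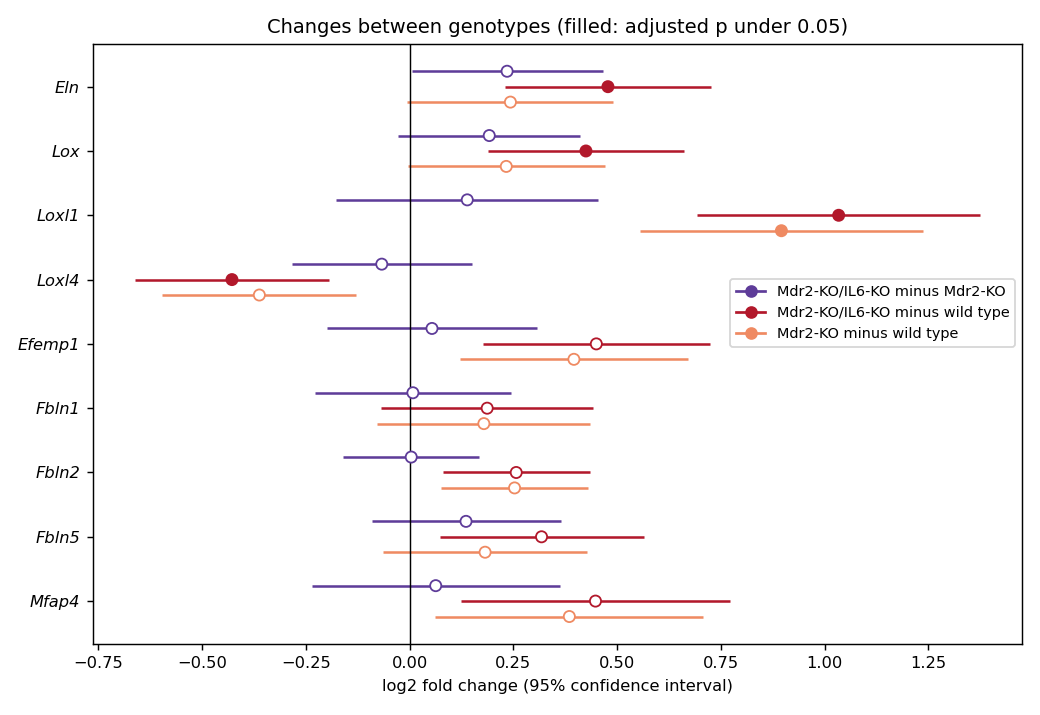
Log2 fold change of each gene (horizontal axis) in the 3 comparisons of genotypes, with 95% confidence intervals from the limma fit that are not adjusted for the number of genes. Filled points passed an adjusted p under 0.05; Loxl1 stands farthest to the right in both comparisons with wild type, at 1.03 and 0.90, and no gene is filled between the knockout groups.

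Setting the double knockout against Mdr2-KO asks how a lack of interleukin 6 alters livers that already lack Mdr2. By limma none of the 9 genes passed, against 0.00502% of all genes, a single gene. At an unadjusted p under 0.05, 1 of the 9 differed, where 4.82% of all genes did. That gene was Eln, with an unadjusted limma p of 0.0459 and an adjusted p of 0.9995. Eln lies on chromosome 5, as do the targeted genes Il6 and Abcb4, and whether this location bears on its level was not tested. The arrays of the knockout groups overlapped for each of the 9 genes, where 1.6% of all genes lay apart upward and 0.908% downward. The log2 change of Eln was 0.24, with a 95% interval of 0.005 to 0.47, and that of Lox was 0.19, from -0.03 to 0.41. For Loxl1 it was 0.14, from -0.18 to 0.45, and for Loxl4 -0.07, from -0.28 to 0.15. The narrowest interval, that of Fbln2, ran from -0.16 to 0.17 around a change below 0.01. The intervals of Efemp1, Fbln1, Fbln5 and Mfap4 also held 0, with upper bounds between 0.25 and 0.36.

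The group means of 8 of the 9 genes ran from highest in Mdr2-KO/IL6-KO through Mdr2-KO to lowest in wild type, an order held by 24.2% of all genes, and Loxl4 ran in the reverse order, held by 21.9%. Since those 8 lay above wild type in both comparisons, only the order of the knockout groups was left to vary. Of all 19938 genes, 10745 had the higher mean in Mdr2-KO/IL6-KO than in Mdr2-KO. For Fbln2 and Fbln1 that order rested on log2 changes of 0.004 and 0.008. The knockout means of Loxl1, Loxl4, Mfap4, Efemp1, Fbln1 and Fbln2 differed by less than the SD of either group. Those of Lox and Fbln5 differed by more than the SD of 1 group, and those of Eln by more than the SD of both.

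Arrays of a group differed among themselves. Mdr2-KO replicate 1 was the highest of its group in 6 of the 9 genes and lowest in none, and it lay 0.18 above its group on average, on the log2 scale. Mdr2-KO replicate 4 was lowest in 4 genes and Mdr2-KO replicate 3 in 3. Wild-type replicate 1 was highest in 6 of the 9 and wild-type replicate 2 lowest in 6. Averaged over the 9 genes, levels relative to the wild-type mean were 0.33, 0.43, 0.37 and 0.27 in Mdr2-KO/IL6-KO and 0.45, 0.28, 0.18 and 0.16 in Mdr2-KO, against 0.07, -0.06 and -0.01 in wild type. All 8 knockout averages lay above wild type, with Mdr2-KO replicates 3 and 4 the closest to it.

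Other genes of the elastic fibre pathway were taken from a list of 46, of which 44 were measured. In Mdr2-KO/IL6-KO livers 9 of the 44 rose and none fell, and in Mdr2-KO livers 4 rose and none fell, against the 2.91% higher and 1.28% lower, and the 0.948% higher and 0.316% lower, of all genes given above. The median log2 change of the 44 was 0.12 in Mdr2-KO/IL6-KO and 0.03 in Mdr2-KO, where that of all genes was 0.00 and -0.01. Between the knockout groups none of the 44 passed by limma, and Fbn2, Ctsk and the matricellular gene Postn were the 3 of 44 with an unadjusted p under 0.05 (log2 changes 0.41, 0.30 and 0.44), a share near the 4.82% of all genes. The 4 that rose in Mdr2-KO were Mmp12, Mmp2, Pcolce and Ltbp2, and all 4 rose in Mdr2-KO/IL6-KO too.

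Enzymes that degrade elastin held the widest changes. Mmp12, the macrophage elastase, rose 4.24-fold in Mdr2-KO/IL6-KO, or 2.08 ± 0.29 (SE) in log2 units (limma adjusted p = 0.00117), and 3.06-fold in Mdr2-KO (1.61 ± 0.29 SE, limma adjusted p = 0.0128). Its arrays read 8.03, 7.82, 7.69 and 7.24 in Mdr2-KO/IL6-KO and 7.40, 6.60, 7.39 and 7.50 in Mdr2-KO, against 6.26, 4.92 and 5.64 in wild type, all apart but widely spread in wild type. Mmp2, a gelatinase made by fibroblasts that also cleaves elastin, rose 2.31-fold in Mdr2-KO/IL6-KO (limma adjusted p = 0.00214) and 2.13-fold in Mdr2-KO (limma adjusted p = 0.00952). Both Mdr2-KO calls were lost without wild-type replicate 2 (adjusted p = 0.0554 for Mmp12 and 0.0533 for Mmp2). The cysteine protease Ctsk rose 1.47-fold in Mdr2-KO/IL6-KO (limma adjusted p = 0.0464), a call kept in 3 of 11 fits that left out 1 array, and was 1.19-fold higher in Mdr2-KO without passing (adjusted p = 0.631). Mmp9, Elane and Ctss did not pass in either.

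Of the microfibril scaffold, Fbn2, the fibrillin of developing tissues, rose 2.04-fold in Mdr2-KO/IL6-KO, or 1.03 ± 0.15 (SE) in log2 units (limma adjusted p = 0.00137), and was 1.53-fold higher in Mdr2-KO without passing (adjusted p = 0.0652). It read 5.57, 5.94, 5.81 and 5.25 in Mdr2-KO/IL6-KO and 5.13, 5.39, 5.14 and 5.27 in Mdr2-KO, against 4.77, 4.48 and 4.61 in wild type, with every knockout array above wild type. Between the knockout groups its change of 0.41 had an unadjusted p of 0.00873 and an adjusted p of 0.966. The microfibril proteins Mfap2, Mfap3 and Mfap5 did not pass, and Fbn1, the main fibrillin of adult tissue, was not analysed here.

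Latent TGF-beta binding proteins sit on fibrillin microfibrils. Ltbp2, which unlike its relatives does not bind latent TGF-beta, rose 1.50-fold in Mdr2-KO/IL6-KO (limma adjusted p = 0.00574) and 1.43-fold in Mdr2-KO (limma adjusted p = 0.029). The Mdr2-KO call was kept in 6 of 11 fits that left out 1 array. All 4 Ltbp genes had positive log2 changes in both comparisons, from 0.17 to 0.59 in Mdr2-KO/IL6-KO and from 0.16 to 0.51 in Mdr2-KO, and the other 3 did not pass.

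Pcolce, an enhancer of procollagen processing by the enzyme Bmp1, which also matures lysyl oxidase, rose 1.42-fold in Mdr2-KO/IL6-KO (limma adjusted p = 0.00609) and 1.43-fold in Mdr2-KO (limma adjusted p = 0.0128). The Mdr2-KO call was lost without wild-type replicate 1 (adjusted p = 0.0765) or 3. Like Eln, Pcolce lies on chromosome 5 with Il6 and Abcb4, and whether this location bears on its level was not tested. Bmp1 itself was at -0.13 and -0.003 on the log2 scale in the same order (limma adjusted p = 0.716 and 0.996), and the other 7 genes of lysyl oxidase activation and copper supply did not pass.

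Loxl3, a further lysyl oxidase, rose 1.26-fold in Mdr2-KO/IL6-KO (limma adjusted p = 0.0477), a call kept in only 1 of 11 fits that left out 1 array, and Loxl2 was not analysed here. The means of Loxl3 (5.257), Fbn2 (5.215) and Ctsk (4.856) over the 11 arrays were below the 5.57 of the median gene. Adamtsl2, a secreted glycoprotein that binds fibrillin and Ltbp1, rose 1.67-fold in Mdr2-KO/IL6-KO (limma adjusted p = 0.0134, lost without wild-type replicate 2 at 0.07) and was 1.57-fold higher in Mdr2-KO without passing (adjusted p = 0.0577). The integrin subunit Itgav, part of the receptors through which cells bind RGD sites, rose 1.28-fold in Mdr2-KO/IL6-KO (limma adjusted p = 0.0351), kept in 4 of 11 such fits. None of the 5 emilin family genes passed. Emilin1, which lies between elastin and microfibrils, came closest, at 0.33 in Mdr2-KO/IL6-KO (adjusted p = 0.073) and 0.39 in Mdr2-KO (adjusted p = 0.0705) on the log2 scale. Of Fbln7 and the hemicentins none passed, and Hmcn2 had the lowest p among them, with a log2 change of -0.18 in Mdr2-KO (adjusted p = 0.542).

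**Figure D3:**
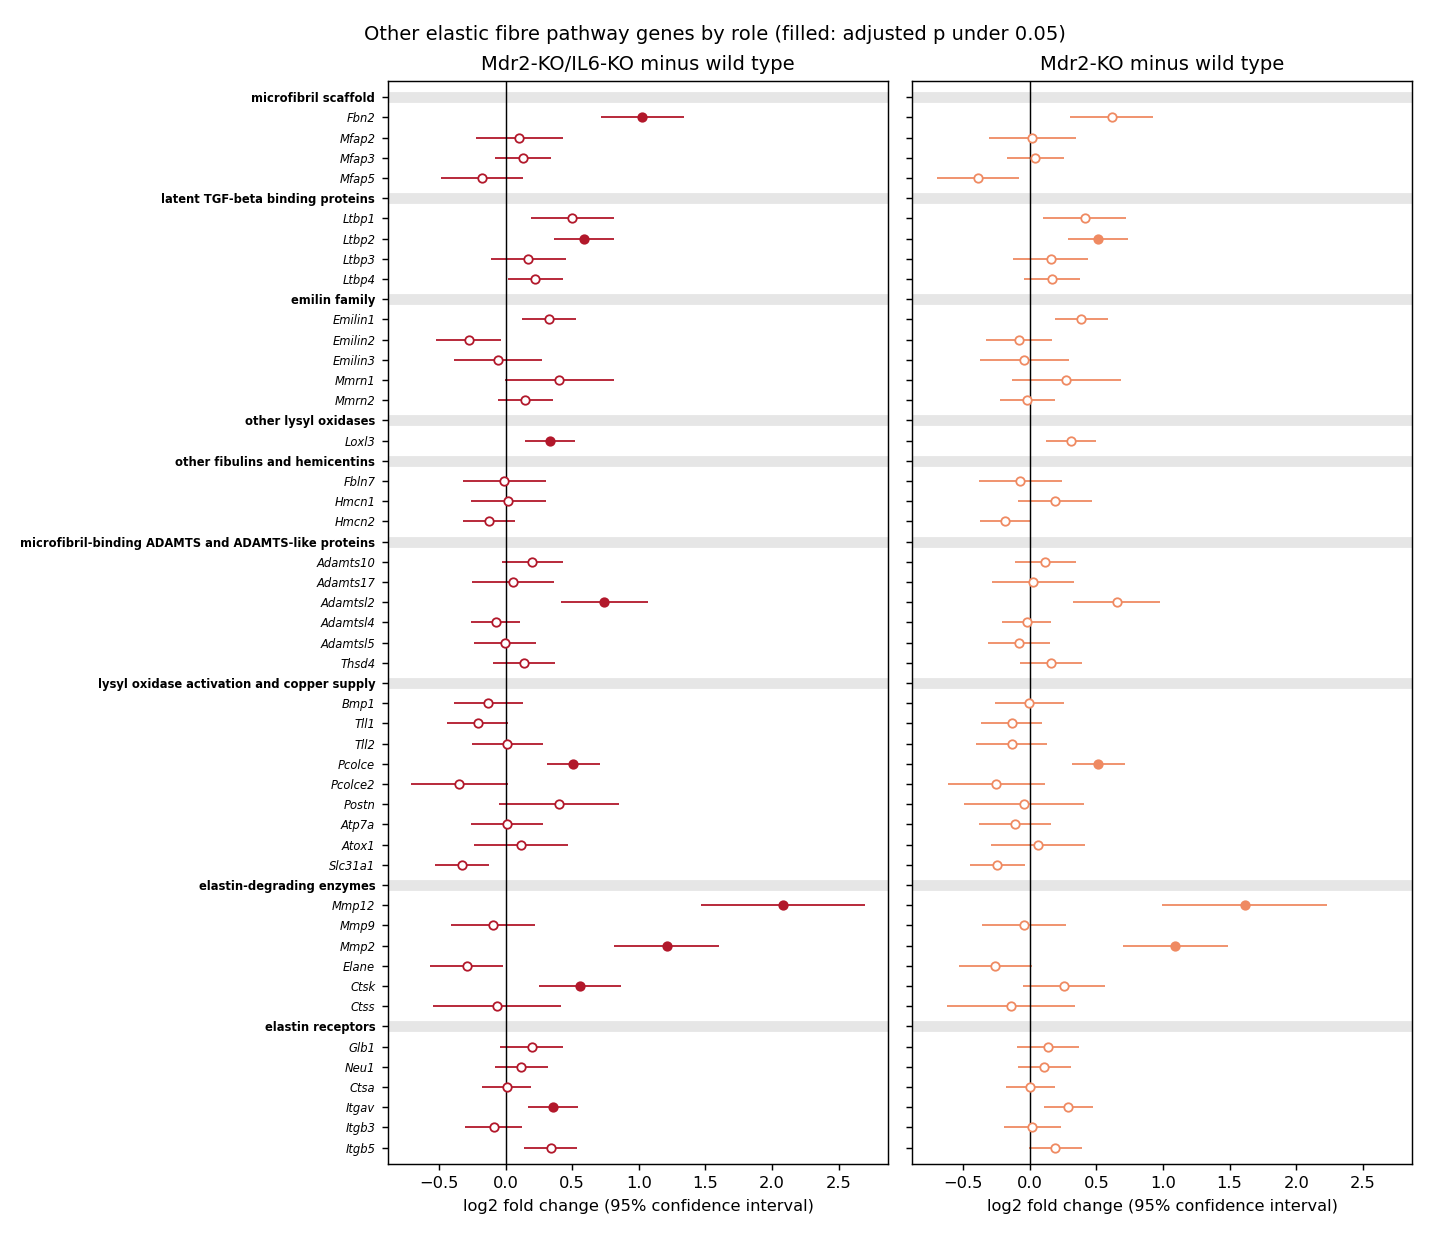
Log2 fold change (horizontal axis, with 95% confidence interval, not adjusted for the number of genes) of the 44 other pathway genes, in rows grouped by role, for Mdr2-KO/IL6-KO minus wild type (left) and Mdr2-KO minus wild type (right). Filled points passed an adjusted p under 0.05, which was so for 9 genes on the left and 4 on the right, all of them upward; Mmp12 reaches farthest, at 2.08 and 1.61.

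In whole liver, a change in the number of cells of a type and a change in RNA per cell cannot be told apart, so markers of the cells that could hold these genes were read on the same arrays. Of 7 portal fibroblast markers 2 rose in both knockout groups, the matrix protein Dpt (3.38-fold in Mdr2-KO/IL6-KO and 3.05-fold in Mdr2-KO) and Cd34 (2.67-fold and 2.42-fold), while Thy1, Entpd2, Clec3b, Pi16 and Gli1 did not pass. The mean of the list relative to wild type ran from 0.33 to 0.67 in Mdr2-KO/IL6-KO and from 0.35 to 0.47 in Mdr2-KO, against -0.12 to 0.08 in wild type, without overlap. That mean was carried by Dpt and Cd34, and the median change of the 7 markers was 0.15 in Mdr2-KO/IL6-KO and 0.02 in Mdr2-KO. Of 6 measured stellate cell markers Pdgfrb, the PDGF receptor of mesenchymal cells, rose 1.78-fold and 1.64-fold and Hhip fell 1.80-fold and 1.87-fold in the same order. The Mdr2-KO calls of Pdgfrb and Hhip were kept in 3 and 4 of 11 fits that left out 1 array, and the Mdr2-KO/IL6-KO call of Hhip in 6. The stellate list means overlapped, from -0.06 to 0.10 in Mdr2-KO/IL6-KO and from -0.15 to 0.05 in Mdr2-KO, against -0.09 to 0.14 in wild type.

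Of 6 smooth muscle and myofibroblast markers Tagln alone passed, 1.41-fold higher in Mdr2-KO/IL6-KO (limma adjusted p = 0.0405, kept in 4 of 11 such fits), and Acta2 was at 0.05 and 0.14 on the log2 scale (adjusted p = 0.936 and 0.878). That list's means ran from 0.01 to 0.15 in Mdr2-KO/IL6-KO and from -0.06 to 0.19 in Mdr2-KO, against -0.09 to 0.11 in wild type. None of 5 mesothelial markers passed, and their means were 0.25 to 0.40 in Mdr2-KO/IL6-KO and -0.20 to 0.26 in Mdr2-KO, against -0.07 to 0.12 in wild type. Only the Mdr2-KO/IL6-KO means of that list lay apart from wild type. Of 6 measured bile duct markers 4 rose in both knockout groups, namely Krt19, Epcam, Cftr and Cldn4 (1.45-fold to 2.56-fold in Mdr2-KO/IL6-KO), with list means of 0.68 to 0.96 in Mdr2-KO/IL6-KO and 0.63 to 0.85 in Mdr2-KO, against -0.01 to 0.00 in wild type. The median change of these 6 was 0.66 in Mdr2-KO/IL6-KO and 0.63 in Mdr2-KO. The Mdr2-KO call of Cldn4 was kept in 6 of 11 fits that left out 1 array.

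In Mdr2-KO/IL6-KO livers the endothelial marker Lyve1 rose 1.58-fold (limma adjusted p = 0.0357) and the T cell marker Cd8a fell 1.50-fold (limma adjusted p = 0.0464), calls kept in 5 and 3 of 11 such fits, and the other 6 endothelial and 4 measured lymphocyte markers did not pass in either comparison. Endothelial means ran from 0.11 to 0.33 in Mdr2-KO/IL6-KO and from 0.01 to 0.20 in Mdr2-KO, against -0.22 to 0.13 in wild type, and lymphocyte means from -0.48 to -0.22 and from -0.49 to -0.12, against -0.25 to 0.28. None of 6 Kupffer cell markers passed, and their means ranged widely, from -0.43 to -0.06 and from -0.50 to 0.12, against -0.87 to 0.55 in wild type. None of 8 hepatocyte markers passed, and their list means were -0.20 to -0.09 in Mdr2-KO/IL6-KO and -0.07 to -0.02 in Mdr2-KO, against -0.03 to 0.02 in wild type. The Mdr2-KO/IL6-KO means thus lay below wild type without overlap. In that group 6 of the 8 markers lay apart from wild type downward and 1 upward, against 6.44% and 9.85% of all genes. The part of any of these cell types in the changes of the elastic fibre genes was not tested.

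**Figure D4:**
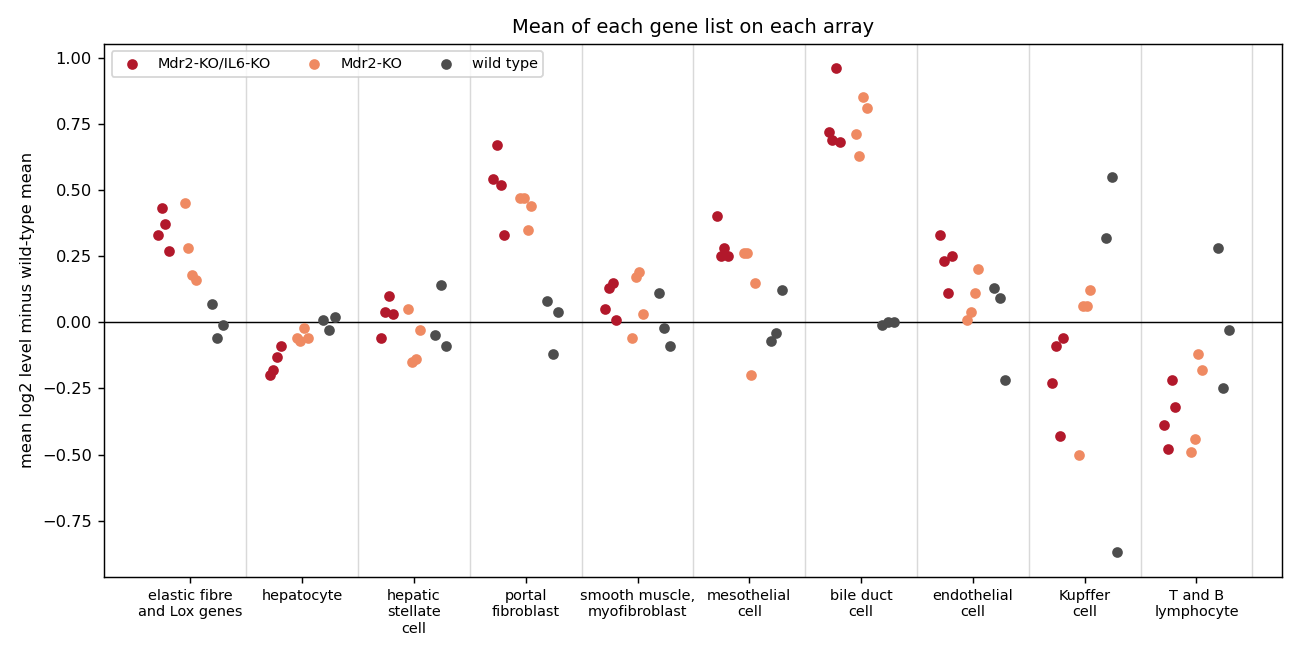
Mean log2 level of the 9 measured elastic fibre and lysyl oxidase genes and of each list of cell markers on each array, minus the mean over wild-type arrays (vertical axis, log2 units); each point is 1 array, coloured by genotype. Both knockout groups lie above wild type without overlap for the elastic fibre, portal fibroblast and bile duct lists. The portal fibroblast mean rests on 2 of 7 markers (Dpt and Cd34, list medians 0.15 in Mdr2-KO/IL6-KO and 0.02 in Mdr2-KO). Mdr2-KO/IL6-KO alone lies apart from wild type for the mesothelial list (above) and the hepatocyte list (below). Both knockout groups overlap wild type for the stellate cell and smooth muscle lists.

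The genes whose pattern over the 11 arrays lay closest to each gene that passed were found by the mean absolute difference between their levels, each centred on its own mean. This measure is a description only, since all these levels come from the same 11 arrays. Closest to Loxl1, which itself deviated from its mean by 0.383 log2 units on average, were the laminin chain Lama2, at a mean difference of 0.119, and the insulin-like growth factor binding protein Igfbp7, at 0.121. Closest to Eln (deviation 0.195) were the collagen receptor Ddr2, at 0.069, and the cell cycle phosphatase Cdc25c, at 0.077. Closest to Lox (deviation 0.143) were Ndfip2, at 0.062, and the secreted Wnt regulator Dkk2, at 0.065. Closest to Loxl4 (deviation 0.176) were the glutamate receptor subunit genes Grin2c, at 0.056, and Gria2, at 0.069.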

How the data were processed

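Expression was measured in 11 liver samples on Affymetrix arrays. The authors deposited log2 levels of 35557 probe sets, processed with Partek and RMA per the submitters' notes on processing, with versions and settings not given in the sources used here. Array medians lay between 5.09 and 5.23, and no further normalization or filter was applied. RMA draws arrays toward a common distribution, so values are relative to the bulk of genes, and the number of arrays limits the precision.

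The platform annotation gave 21789 probe sets 1 symbol, 1621 several and 12147 none; symbols were brought up to date through Entrez identifiers and RefSeq (GRCm38.p6). The brightest single-symbol probe set of a gene was kept, giving 19938 genes, 19856 of them in RefSeq. limma 3.58.1 in R 4.3.3 fitted a mean per group and 3 contrasts with eBayes. The code was also run on simulated arrays with independent scatter, where both knockout groups were given the same changes. No true change between the knockout groups was simulated, so that run does not show how well the fit finds one. Levels carry SDs over arrays and log2 changes SEs from the fit.

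Besides the 10 genes, those named were Abcb4 and Il6, called pathway genes (in a role with none, the one with the lowest p), called cell markers, and the 2 genes nearest in pattern to each called gene. Other genes were named after their values were seen. The genes and lists were chosen with earlier results of these data known. Alternatives changed the probe set rule, the filter on dim genes, the normalization, the moderation, the threshold and the arrays used. Leaving out Mdr2-KO replicates 2 and 3 together was added after seeing the data.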

Additional observations from a re-analysis of the deposited data

Results flagged for a closer look

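Over 18 sets of 4 arrays (9 genes in each knockout group), 1 held an array set far from the others. In Mdr2-KO replicate 3 the log2 level of Lox was 4.34, while the nearest of the other 3 arrays read 4.42 and the farthest 4.43. The distance to the nearest made up 0.864 of the range of the group. That range is narrow, and chance alone would set apart about 1 in 20 such sets.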

How the results depend on the processing

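Loxl1 in Mdr2-KO/IL6-KO against wild type was called in all 19 alternatives that gave a value for it, with a log2 change of 0.93 to 1.15. In Mdr2-KO it was called in 16 of 19. Eln in Mdr2-KO/IL6-KO was called in 13 of 19, Loxl4 in 8 of 18 and Lox in 6 of 18, each with its direction kept in all of them, while Efemp1 passed in 4 of 19 and Fbln2 and Mfap4 in 1 each. With an unmoderated model the calls among the 9 genes were 1 in Mdr2-KO/IL6-KO and 0 in Mdr2-KO, those among the other pathway genes were 0 in Mdr2-KO, and those among all genes were 496 in Mdr2-KO/IL6-KO, 43 in Mdr2-KO and 0 between the knockout groups. With an adjusted p under 0.01 they were 1 and 0 among the 9 genes, 5 and 1 among the pathway genes and 342 and 94 among all genes, in Mdr2-KO/IL6-KO and Mdr2-KO. With only the groups compared, the Mdr2-KO counts were 2 pathway genes and 138 genes in all. Leaving out 1 array gave 1 to 4 of the 9 genes in Mdr2-KO/IL6-KO and 0 to 1 in Mdr2-KO, 6 to 11 and 1 to 5 pathway genes, and 464 to 989 and 148 to 323 genes in all. Between the knockout groups the count over all genes was 1 to 5 when 1 array was left out (5 without Mdr2-KO replicate 3), 4 among genes brighter than the median gene, 2 with median centring, 2 with trend and robust moderation and 2 without Mdr2-KO replicates 2 and 3, and no elastic fibre or pathway gene was called there in any alternative. Signs turned only for changes between the knockout groups that were near 0 and never called. Leaving out 1 array, these ran from -0.01 to 0.17 for Efemp1, -0.07 to 0.08 for Fbln1, -0.02 to 0.06 for Fbln2 and -0.07 to 0.17 for Mfap4. Quantile normalization and median centring gave -0.001 and -0.0011 for Fbln1 and -0.01 with each for Fbln2. Without Mdr2-KO replicates 2 and 3 the values were -0.08 for Efemp1 and -0.07 for Fbln2. A stricter threshold lowers the counts by construction, and the cause of the other shifts was not tested. The filter on dim genes left 5 of the 9 genes, without Lox, Loxl4, Fbln1 and Mfap4. It left 28 of the 44 other pathway genes, and Fbn2, Loxl3 and Ctsk were among those dropped. No paired analysis was possible because the labels give no replicate numbers that the groups share.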
